A study of Canis lupus familiaris with 6 samples.

Results

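The interleukin-1 (IL-1) family and caspase-1 were examined in CPEK cells, a canine line of progenitor epidermal keratinocytes, after treatment with cold atmospheric microwave plasma (CAMP). The members were 8 genes fixed by name: the cytokines IL1A, IL1B, IL18 and IL33, the receptor antagonist IL1RN, the receptor chains IL1R1 and IL1RAP, and the protease CASP1. Of these, 7 were found by symbol among the 35993 genes of the deposited table. CASP1 is not used there as a symbol, and gene 403724, listed as CASP4, was taken for it because the RefSeq gene table (UU_Cfam_GSD_1.0) gives CASP1 as a synonym of that gene. RNA was sequenced from wild-type cells of this single line, in 3 libraries after direct CAMP (dCAMP) and 3 control libraries after the carrier gas, argon, without plasma. Either exposure lasted 30 s. The cells then stood for 15 min, were given new medium and were collected 24 h later. The labels do not say that the libraries of a group came from separate cultures, so p-values measure the spread between these samples, which may be technical.

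IL-1 alpha and IL-1 beta bind the receptor chain IL1R1, which then recruits the accessory chain IL1RAP and signals through MYD88 and IRAK kinases to NF-kappaB. IL1RN occupies the same receptor without signaling. IL-1 beta and IL-18 are made as inactive precursors that caspase-1 cuts within inflammasomes, whereas keratinocytes hold IL-1 alpha as an alarm signal that is released upon damage, and IL-18 precursor is a regular product of keratinocytes.

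The gene counts of a library summed to 43084921 at the lowest and 54082634 at the highest. All 12 keratinocyte markers checked exceeded 1 CPM (counts scaled to the normalized library size) in every library, with summed levels of 52220 to 62920 CPM in the gas group and 49120 to 52290 in the dCAMP group. KRT5 (21828 to 28157 CPM) and KRT14 (14651 to 20630) held most of that sum. The markers differed in direction. Without overlap of the groups, 3 were higher in dCAMP (DSG3, ITGA6 and PERP) and 4 lower (KRT5, KRT14, SFN and CDH3). Among all genes tested these shares were 19% and 20.9%. Of 10 leukocyte markers, 6 had no count in any library, among them PTPRC, CSF1R and TYROBP, and the list summed to 4.54 to 5.90 CPM in gas and 5.72 to 7.61 in dCAMP. The highest of them was ITGAM, at 2.85 to 3.67 CPM in gas and 4.25 to 4.60 in dCAMP (log2 fold change 0.38 by edgeR). For CD68 (−0.16) and CD14 (0.36) the groups overlapped, and LYZ had 0 to 3 counts. Fibroblast markers summed to 5.18 to 5.77 CPM in gas and 5.53 to 5.83 in dCAMP (LUM and DCN at 0), melanocyte markers to 0.456 to 0.843 and 0.604 to 0.841 (TYR and DCT at 0), and endothelial markers to 11.8 to 14.7 and 14.1 to 19.3 (PECAM1 at 0). COL1A1 was lower in dCAMP without overlap (log2 fold change −0.68 by edgeR), while COL1A2 (0.54) and COL3A1 (0.16) overlapped, and PDGFRA had 3 to 12 counts. CDH5 was higher in dCAMP without overlap (0.69), while VWF, the highest endothelial marker, overlapped (0.30). The part of these markers in the results was not tested. The 2 melanocyte markers with counts differed in direction, as MLANA had 4, 0 and 0 counts in gas replicates 1, 2 and 3 and 13, 16 and 11 in those of dCAMP, while PMEL had 24 to 39 and 13 to 27. MLANA passed the rule of a 2-fold difference at an unadjusted p under 0.05 in edgeR, and its part in the results was not tested. The gas libraries stood apart from one another. On the first principal component of log2 CPM, which held 71.2% of the variance, they lay at −94.1 (gas 1), −23.0 (gas 2) and 21.7 (gas 3), and the dCAMP libraries lay at 28.6 to 33.6. Fold changes are therefore given with and without gas 1 and gas 3, and the part of these libraries' difference in them was not tested. Values of a group are listed in the order of replicates 1, 2 and 3.

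IL18 was the member that differed most between the groups. It was lower in each gas library than in every dCAMP library, and the gas libraries differed from each other by more than gas 3 differed from dCAMP. IL1A, IL1RAP and IL1R1 were also above the gas range in the 3 dCAMP libraries, by smaller margins, while the ranges of IL1RN overlapped. IL1B, IL33 and the caspase gene were at or near 0. None of the differences passed an adjusted p under 0.05 in edgeR's quasi-likelihood test over the 14708 genes tested. In bulk samples, fewer cells that express a gene and less of its RNA per cell cannot be told apart.

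**Figure D1:**
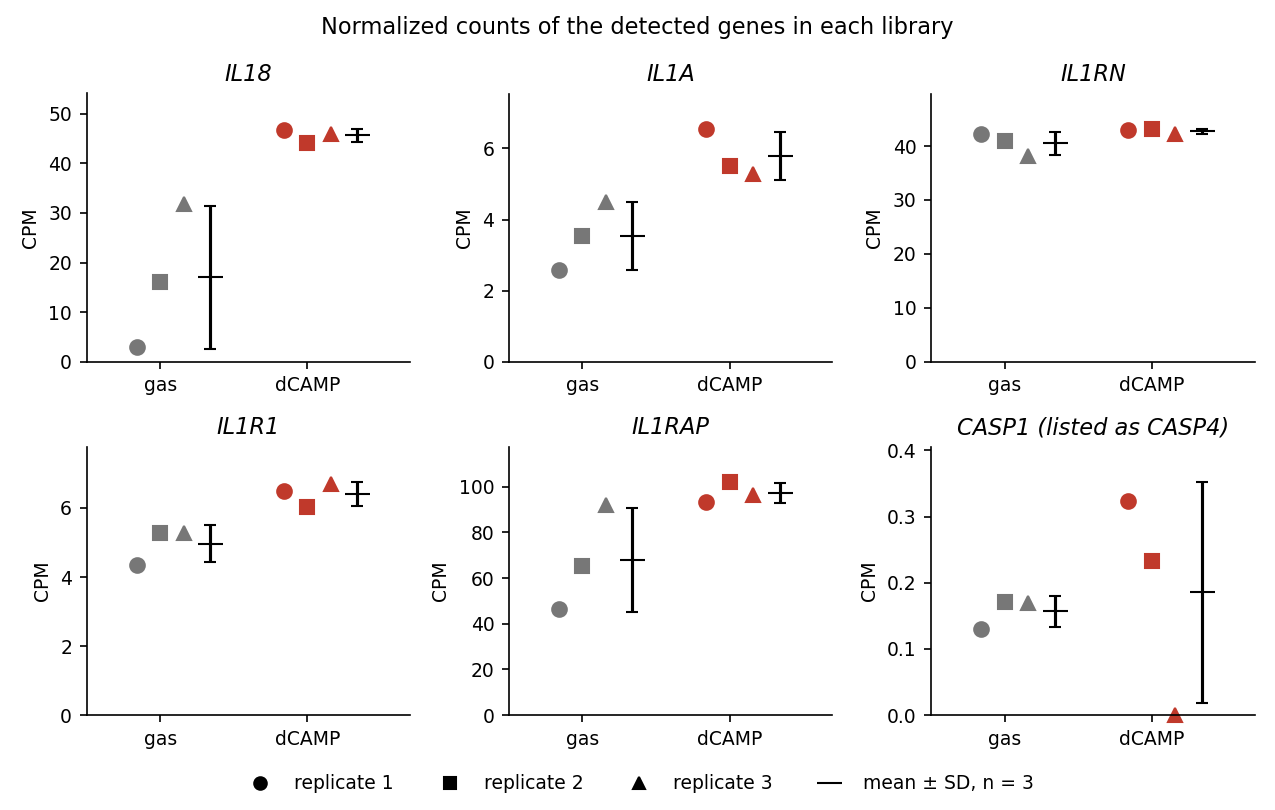
Normalized counts (CPM, y axes from 0, a scale of its own in each panel) of 6 genes in 3 gas libraries (grey) and 3 dCAMP libraries (red). Marker shapes give the replicate number, and the bars are mean ± SD (n = 3). IL18 runs from 3.05 to 31.9 CPM in gas against 44.1 to 46.8 in dCAMP, whereas IL1RN stays between 38.2 and 43.1 in all 6 libraries.

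On chromosome 5, at 20972742 to 20995327 of CanFam3.1 (the build of all positions given), lies IL18 (gene ID 403796). Reads assigned to it numbered 141, 847 and 1691 under gas, and 2169, 1891 and 2077 under dCAMP. Scaled to library size, these were 3.05, 16.1 and 31.9 CPM against 46.8, 44.1 and 46.0. The level in gas 1 was 6.68% of the dCAMP mean, that in gas 2 was 35.3% and that in gas 3 was 69.9%. The groups did not overlap, and the 3 dCAMP libraries differed little from each other.

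The coefficient of variation of IL18 was 84.9% among the gas libraries and 3.02% among the dCAMP libraries. The medians over all genes tested were 16.6% and 5.89%, and 2.73% of the genes tested varied more than IL18 among the gas libraries. The log2 fold change was 1.42 (standard error 0.72, unadjusted p = 0.092, adjusted p = 0.276 by edgeR's quasi-likelihood test), a 2.68-fold difference, and 0.496% of genes tested had as large a fold change or a larger one in that direction. Without gas 1 the log2 fold change was 0.91 (adjusted p = 0.20), and without gas 3 it was 2.20 (adjusted p = 0.0507). IL18 is among the genes that the study selected from these libraries, so its difference here is not independent evidence. The paper also measured IL18 by qRT-PCR and reports it as significantly higher after dCAMP, and those measurements were not examined here.

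The order of the gas libraries in IL18, lowest in gas 1 and highest in gas 3 with every dCAMP library above, is a common one. It was found in 14.7% of the genes tested (2164 genes), and it matches the positions of the libraries on the first principal component. A level in gas 1 that was as small a share of the dCAMP mean was found in 1.48% of genes. The positions of the gas libraries on that component thus move with their IL18 levels, and their part in the difference was not tested.

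IL1A encodes the agonist IL-1 alpha (gene ID 403782) and lies at 36969581 to 36979445 of chromosome 17. It drew 119, 186 and 238 counts under gas and 304, 236 and 239 under dCAMP, which is 2.57, 3.53 and 4.49 CPM against 6.56, 5.51 and 5.29. Every dCAMP library was above every gas library once library size was considered, with dCAMP 1 the highest. The log2 fold change was 0.70 (standard error 0.22, unadjusted p = 0.018, adjusted p = 0.221 by edgeR). It was 0.51 without gas 1 (adjusted p = 0.208) and 0.87 without gas 3 (adjusted p = 0.027).

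IL1B, the other agonist (gene ID 403974; chromosome 17, 37019329 to 37033388), had no count in 5 libraries and 3 counts in dCAMP 2. IL33, a nuclear alarm cytokine (gene ID 403810; chromosome 11, 27219878 to 27256723), had no count in any of the 6. A count of 0 allows up to 3 counts, or 0.0566 to 0.07 CPM in these libraries, where the limit covers counting error only. Neither gene passed the filter on low counts, so neither was tested, and a difference in them was not detectable at this depth.

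IL1RN, the antagonist (gene ID 403660), lies on the same chromosome at 37236690 to 37250424. It drew 1958, 2157 and 2028 counts under gas and 1992, 1846 and 1904 under dCAMP. The levels were 42.3, 41.0 and 38.2 CPM in gas and 43.0, 43.1 and 42.1 in dCAMP. The groups overlapped, and the coefficient of variation among the gas libraries was 5.12%, with 92.7% of genes varying more. The log2 fold change was 0.08 (standard error 0.09, adjusted p = 0.567 by edgeR), 0.09 without gas 1 and −0.01 without gas 3. It was also −0.01 with upper-quartile factors, so no direction is given for it.

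IL1R1, the ligand-binding receptor chain (gene ID 481328), lies at 40825986 to 40897898 of chromosome 10. Its levels were 4.34, 5.28 and 5.28 CPM under gas against 6.50, 6.02 and 6.71 under dCAMP, from 201 to 303 counts a library. The groups did not overlap, but the log2 fold change was only 0.36 (standard error 0.13, unadjusted p = 0.0299, adjusted p = 0.226 by edgeR). Unlike that of IL18, it was not larger without gas 3 (0.36, adjusted p = 0.0879), and it was 0.26 without gas 1. With a correction for gene length in each library, it was 0.16 (adjusted p = 0.394).

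IL1RAP, an accessory chain that the receptors of several family members share (gene ID 488126), lies at 22547422 to 22628628 of chromosome 34. Its levels were 46.5, 65.3 and 91.8 CPM under gas against 93.2, 102 and 96.5 under dCAMP. The groups did not overlap, but gas 3 reached 94.3% of the dCAMP mean and lay just under the lowest dCAMP library. The log2 fold change was 0.52 (standard error 0.24, unadjusted p = 0.0693, adjusted p = 0.257 by edgeR). It was 0.29 without gas 1 (adjusted p = 0.263) and 0.75 without gas 3 (adjusted p = 0.0241).

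The caspase gene (gene ID 403724) lies at 27133778 to 27147954 of chromosome 5. It drew 6, 9 and 9 counts under gas and 15, 10 and 0 under dCAMP. Its level was at most 0.324 CPM. The groups overlapped and the gene did not pass the filter on low counts in the fit of all 6 libraries. Its single annotated transcript of 1206 bases carried all of its counts.

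**Figure D2:**
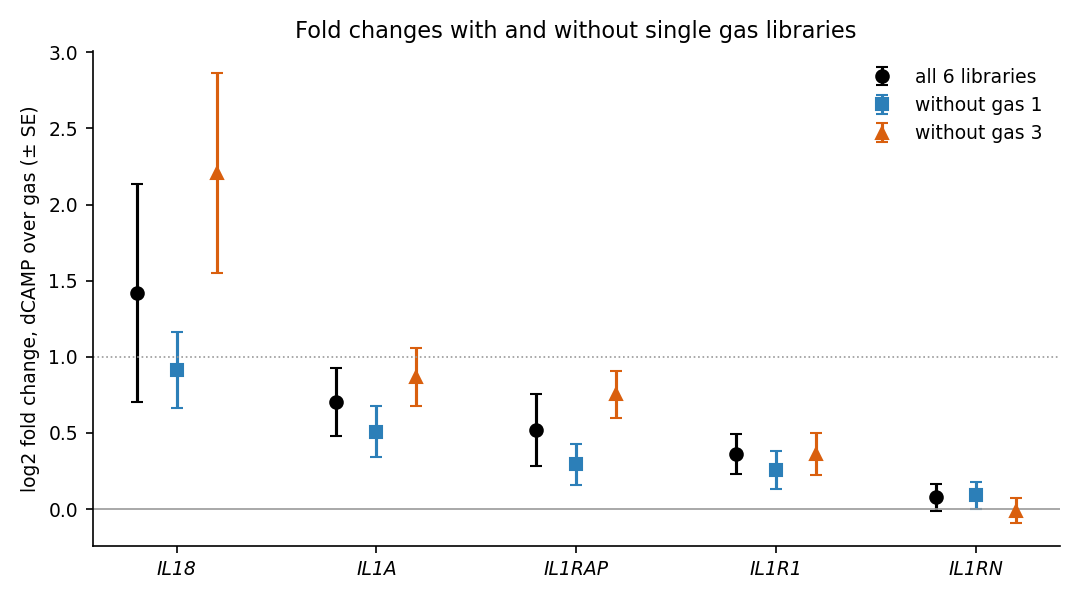
Log2 fold changes of dCAMP over gas (y axis, ± standard error, edgeR) for the 5 members tested, from all 6 libraries (black circles), without gas 1 (blue squares) and without gas 3 (orange triangles). The dotted line marks a 2-fold change. IL18 ranges from 0.91 to 2.20 with the choice of gas library, and IL1RN stays near 0.

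A 2-fold difference at an unadjusted p under 0.05, the rule of the methods, was met in edgeR by 0 of the 5 members tested, against 1.09% of all genes tested (161 genes). At an adjusted p under 0.05 edgeR called 0 members and 0% of genes, whereas limma's voom with sample quality weights called 4 members, all but IL1RN and all higher, against 32.6% of genes that it called higher and 28.2% that it called lower. An unadjusted p under 0.05 was reached by 2 members, IL1A and IL1R1, both higher in dCAMP, and by 20.7% of genes (3040), 6.81% higher and 13.9% lower. DESeq2's Wald test on genes with a count in every library called 1 member, IL18, by the first rule (unadjusted p = 0.0276, adjusted p = 0.171), against 2.14% of genes. Without gas 3, edgeR called IL18 by the 2-fold rule, against 10.2% of genes. In that fit IL1A and IL1RAP, 2 of the 6 members tested, had an adjusted p under 0.05 and were higher, against 15% of genes that were higher and 18.1% that were lower by the same rule.

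In 4 of the 5 members tested the groups did not overlap, with dCAMP higher, and in 0 with dCAMP lower. Among all genes tested the shares were 19% higher and 20.9% lower. The median log2 fold change of the 5 was 0.52, against 0.03 for all genes tested. It was 0.28 for the members without gas 1.

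Levels of different genes were compared per length, as FPKM. In gas 1 the order was IL1RN (22.4 FPKM), IL1RAP (9.70), IL18 (3.16), IL1A (1.56) and IL1R1 (0.708). In gas 3, IL18 stood first at 31.9 FPKM, above IL1RN (19.5) and IL1RAP (18.4). In the gas group as a whole the FPKM ranges of IL18 and IL1RN overlapped, as did those of IL18 and IL1RAP, so these neighbors did not differ beyond their spread, while IL1A (1.56 to 2.37) and IL1R1 (0.708 to 0.957) were each apart from the rest.

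The dCAMP libraries had 1 order in common. IL18 led with 45.3 to 48.0 FPKM, followed by IL1RN (21.7 to 22.3), IL1RAP (18.8 to 20.8), IL1A (2.87 to 3.76), IL1R1 (0.965 to 1.26) and the caspase gene (0 to 0.234), and no ranges of neighbors overlapped. The ratio of IL18 to IL1RN in FPKM was 2.03 to 2.21 in the dCAMP libraries, whereas it was 0.141 in gas 1, 0.787 in gas 2 and 1.64 in gas 3.

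To compare IL18 with its relatives directly, the log2 ratio of their CPM was taken within each library, where depth and scaling cancel. For IL18 over IL1RN this ratio was −3.78, −1.35 and −0.26 under gas and 0.12, 0.03 and 0.13 under dCAMP. The mean was −1.79 ± 1.80 (SD, n = 3) in gas and 0.09 ± 0.05 (SD, n = 3) in dCAMP, a difference of 1.89 (2-sided exact permutation p = 0.1, the smallest that 3 against 3 libraries allow). The difference was 0.90 without gas 1 and 2.66 without gas 3.

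The same ratio over IL1R1 differed by 1.60, that over IL1RAP by 1.40 and that over IL1A by 1.23, each with an exact permutation p of 0.1 and an adjusted p of 0.1 over the 4 pairs compared. In each pair the 3 dCAMP libraries lay above the 3 gas libraries. IL18 over IL1A was the closest case, with 2.82 in gas 3 against 2.83 in dCAMP 1. In FPKM this pair overlapped, since the ratio was 13.5 in gas 3 and 12.5 in dCAMP 1, and the exact permutation p was 0.2. Ratios to IL1B, IL33 and the caspase gene were not computed, because these genes did not pass the filter on low counts.

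**Figure D3:**
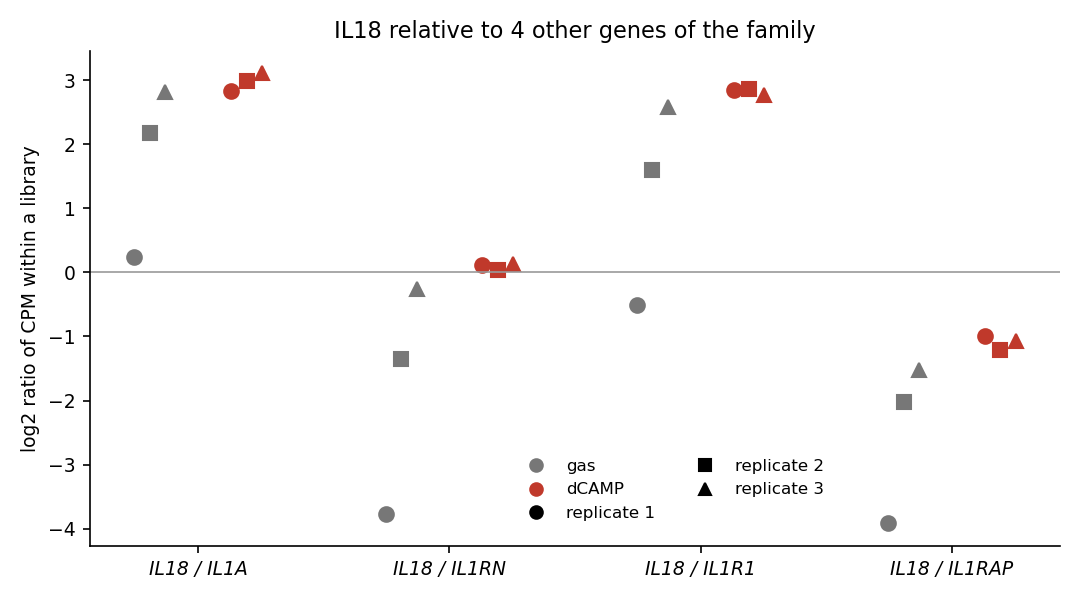
Log2 ratio of the CPM of IL18 to that of 4 relatives within each library (y axis), with gas libraries in grey, dCAMP libraries in red and marker shapes for the replicate number. In each pair the 3 gas points lie below the 3 dCAMP points and spread more widely, with an SD of 1.26 to 1.80 against 0.05 to 0.14.

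The antagonist was also compared with the agonist. IL1RN exceeded IL1A in every library, by 14.4, 10.6 and 8.21 times in FPKM under gas and by 5.86, 7.59 and 7.58 times under dCAMP. The 3 dCAMP ratios were below the 3 gas ratios. On the log2 scale the mean was 3.43 ± 0.40 (SD, n = 3) in gas and 2.80 ± 0.21 (SD, n = 3) in dCAMP, a difference of −0.63 (2-sided exact permutation p = 0.1, the smallest possible). It was −0.42 without gas 1 and −0.83 without gas 3.

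The transcript table was used to see which annotated transcripts carried these values. The split of reads between overlapping transcripts is an estimate by StringTie, and no test was made. IL18 rested on 1 transcript of 868 bases, which took 93.5% to 99.5% of its counts in the 6 libraries. A shorter form of 582 bases took 0.461% to 6.45%, with 134 counts in dCAMP 3 against 2 to 41 in the other libraries. The 868-base form itself had 139, 805 and 1681 counts under gas and 2157, 1854 and 1943 under dCAMP, so its groups stood in the same order as those of the gene.

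IL1A had 2 transcripts of 1873 and 1045 bases. The longer took 66.4% to 82.2% of its counts, with the groups overlapping. The shorter had 40, 50 and 44 counts under gas and 91, 42 and 48 under dCAMP, and both forms were highest in dCAMP 1. IL1RN kept 98.8% to 99.7% of its counts on a 1705-base transcript and IL1RAP at least 99.6% on a 4330-base transcript.

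The transcripts of IL1R1 were assigned differently between libraries of 1 group. The 5499-base form held 99.5%, 89.9% and 12.1% of the counts under gas and 100%, 100% and 0% under dCAMP. In gas 3 and dCAMP 3 a 4656-base form held 76.1% and 63.0% instead. The split did not follow the treatment, and the FPKM of IL1R1 depends on it through length while its count does not. The locus of IL1R1 also overlaps that of LOC102157304, and those of IL1A and IL1B overlap that of IL37. That of the caspase gene overlaps LOC106558805, which had 0 counts. How reads on overlapping loci were counted is not given in the sources used here, which leaves their counts uncertain to that extent.

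**Figure D4:**
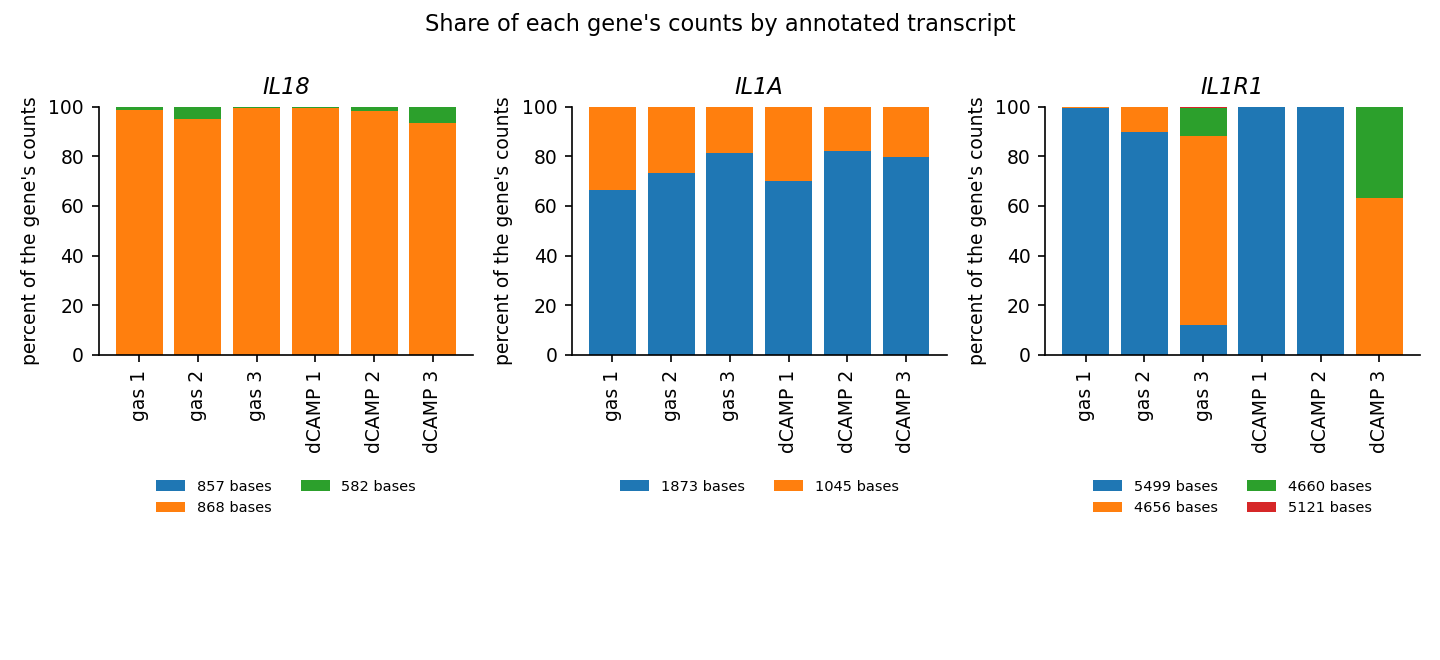
Percent of the counts of IL18, IL1A and IL1R1 (y axis) assigned to each annotated transcript with a count, by library. Colors mark transcripts by length in bases. The 868-base form dominates IL18 in every library, whereas the leading form of IL1R1 differs in gas 3 and dCAMP 3 from that of the other libraries.

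Genes with the profile most like that of IL18 were sought among the 14707 others tested, by the root-mean-square distance of log2 CPM over the 6 libraries after each gene's own mean was subtracted. The nearest were UBE2W (0.113 log2 units), a ubiquitin-conjugating enzyme, VPS26A (0.114), a subunit of the retromer that sorts endosomal cargo, ATRX (0.115) and SMARCAD1 (0.143), both chromatin remodelers, and SLITRK6 (0.145), a membrane protein. VPS26A, for example, had 7.50, 39.9 and 87.5 CPM under gas and 98.7 to 108 in dCAMP. On log2 of FPKM plus 0.1, VPS26A, ATRX and SMARCAD1 remained among the nearest 5. Its relatives ranked lower, as IL1A ranked 2558 (0.993), IL1RAP 2670 (1.01), IL1R1 4461 (1.21) and IL1RN 7149 (1.41). This distance is not scaled to a gene's spread, so a gene that varies less than IL18 ranks lower even with a profile of the same shape. Over the 6 libraries the SD of log2 CPM was 1.40 for IL18 and 0.44 for IL1A. For IL1RAP it was 0.40, for IL1R1 0.21 and for IL1RN 0.06. Likeness in shape alone was not tested.

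Beyond the members, 74 other genes of the pathway were listed in 7 groups by role. Of these, 71 were found in the table, 13 had no count in any library and 49 were tested. The 2-fold rule called 0 of them in edgeR's fit of all libraries. Without gas 3 it called 4 of the 50 tested in that fit (CHUK, REL, NEK7 and CXCL8), all higher, against 10.2% of genes. Of the 1523 genes called in that fit, 1473 were higher. Without gas 1 the log2 fold changes of the 4 were 0.32 (CHUK), 0.26 (REL), 0.58 (NEK7) and 0.54 (CXCL8). In edgeR, 26 had a positive and 23 a negative log2 fold change, with a median of 0.03, as for all genes tested to 2 decimals. An unadjusted p under 0.05 was reached by 2 that were higher and 8 that were lower, together 20.4%, against 20.7% of all genes. From each group the genes with the smallest p are named.

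Among the other IL-1 family ligands, 3 of 6 were tested and 0 had an unadjusted p under 0.05. IL36RN, the antagonist of the IL-36 receptor, had 388, 238 and 143 counts under gas and 393, 220 and 327 under dCAMP (log2 fold change 0.42, adjusted p = 0.503 by edgeR). Here gas 1 was the highest gas library and gas 3 the lowest, the reverse of IL18, and the groups overlapped. The log2 fold change was 0.92 without gas 1 (adjusted p = 0.207) and 0.06 without gas 3 (adjusted p = 0.896). IL37, a family member that dampens inflammation, had 4 to 33 counts (log2 fold change −0.45, adjusted p = 0.6), with −0.19 without gas 1 and −0.50 without gas 3.

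Among the other receptors and decoys, 4 of 7 were tested and 3 had no count in any library. IL1RL2, the receptor chain for IL-36, had 445 to 547 counts in gas and 490 to 576 in dCAMP, with groups that did not overlap after scaling (log2 fold change 0.23, adjusted p = 0.26 by edgeR; 0.19 without gas 1 and 0.21 without gas 3). IL18BP, the soluble protein that binds and blocks IL-18, had 158, 201 and 154 counts under gas and 145, 119 and 123 under dCAMP (log2 fold change −0.23, adjusted p = 0.351), with −0.24 without gas 1 and −0.37 without gas 3. The 3 genes without a count, picked out after their values were seen, were both chains of the IL-18 receptor, IL18R1 and IL18RAP, and the IL-33 receptor IL1RL1.

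The receptor adaptors and kinases were all tested, 11 of 11, and 5 had an unadjusted p under 0.05, 1 higher and 4 lower, against 6.81% and 13.9% of all genes. IRAK1, the kinase recruited to the activated receptor complex, had 7953, 7774 and 6490 counts under gas and 4851, 4424 and 4618 under dCAMP (log2 fold change −0.51, adjusted p = 0.221 by edgeR). MYD88, the adaptor that links receptor and kinases, had a log2 fold change of −0.31 (adjusted p = 0.221). Without gas 1 and without gas 3, that of IRAK1 was −0.41 and −0.67 and that of MYD88 was −0.28 and −0.40, and both had an adjusted p under 0.05 without gas 3 only. In both genes the dCAMP libraries lay below the gas libraries, as they did in 4 of the 11, and in 4 they lay above, against 20.9% and 19% of all genes. Without gas 3, 5 of the 11 had an adjusted p under 0.05 and were higher, and 4 were lower, against 15% and 18.1% of all genes in that fit.

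In the NF-kappaB module, 13 of 13 were tested, and 10 had a negative log2 fold change, against 7002 of all 14708 genes tested. The median of the module was −0.23, with −0.13 without gas 1 and −0.35 without gas 3. An unadjusted p under 0.05 was reached by 3, all lower, against 13.9% of all genes. NFKBIB, an inhibitor that holds NF-kappaB in the cytoplasm, had 1422 to 1782 counts in gas and 1020 to 1079 in dCAMP (log2 fold change −0.41, adjusted p = 0.221 by edgeR). IKBKB, a kinase that marks such inhibitors for degradation, had a log2 fold change of −0.26 (adjusted p = 0.226). Without gas 1 and without gas 3, that of NFKBIB was −0.39 and −0.56 and that of IKBKB was −0.23 and −0.35, and both had an adjusted p under 0.05 without gas 3 only. In 6 of the 13 the groups did not overlap, with dCAMP lower, against 20.9% of all genes tested. Without gas 3, 1 gene had an adjusted p under 0.05 and was higher, and 6 were lower, against 15% and 18.1% of all genes.

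Few inflammasome genes were detected. Of 12 listed, 2 symbols were not found, 5 had no count in any library (NLRP1, NLRP3, NLRP6, MEFV and CARD8), and 3 were tested. The adaptor PYCARD had 0 to 2 counts in gas and 2 to 6 in dCAMP, too few to be tested. These 6 names were picked out after their values were seen. NEK7, a mitotic kinase that also binds NLRP3, had 595, 1195 and 2435 counts under gas and 2342, 2194 and 2442 under dCAMP (log2 fold change 0.93, adjusted p = 0.258 by edgeR), 0.58 without gas 1 (adjusted p = 0.247) and 1.50 without gas 3 (adjusted p = 0.0213). NLRC4, a sensor of bacterial proteins, had 31 to 51 counts (log2 fold change 0.27, adjusted p = 0.43), with 0.25 without gas 1 and 0.19 without gas 3.

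Of the proteases and gasdermins, 9 of 10 were tested and 0 had an unadjusted p under 0.05. CAPN2, a calpain, the protease family that cuts the IL-1 alpha precursor, had 20159 to 22417 counts in gas and 15427 to 17563 in dCAMP (log2 fold change −0.24, adjusted p = 0.25 by edgeR). Its groups did not overlap, with dCAMP lower, and the log2 fold change was −0.16 without gas 1 (adjusted p = 0.29) and −0.36 without gas 3 (adjusted p = 0.029).

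Of 15 genes that keratinocytes are known to induce in response to IL-1, 6 were tested and 4 had no count in any library (IL6, CSF2, TNF and SAA1, named after their values were seen). PTGS2, the inducible enzyme of prostaglandin synthesis, had 771, 746 and 1138 counts under gas and 1733, 1052 and 1377 under dCAMP. Its groups did not overlap after scaling (log2 fold change 0.82, standard error 0.22, unadjusted p = 0.0081, adjusted p = 0.221 by edgeR), with 0.77 without gas 1 (adjusted p = 0.201) and 0.95 without gas 3 (adjusted p = 0.0264). IRF1, a transcription factor, had 541 to 672 counts in gas and 404 to 454 in dCAMP (log2 fold change −0.39, adjusted p = 0.237), with −0.28 without gas 1 (adjusted p = 0.26) and −0.56 without gas 3 (adjusted p = 0.0265). The median of the 6 was 0.40, with 4 positive and 2 negative, and it was 0.25 without gas 1 and 0.47 without gas 3.

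**Figure D5:**
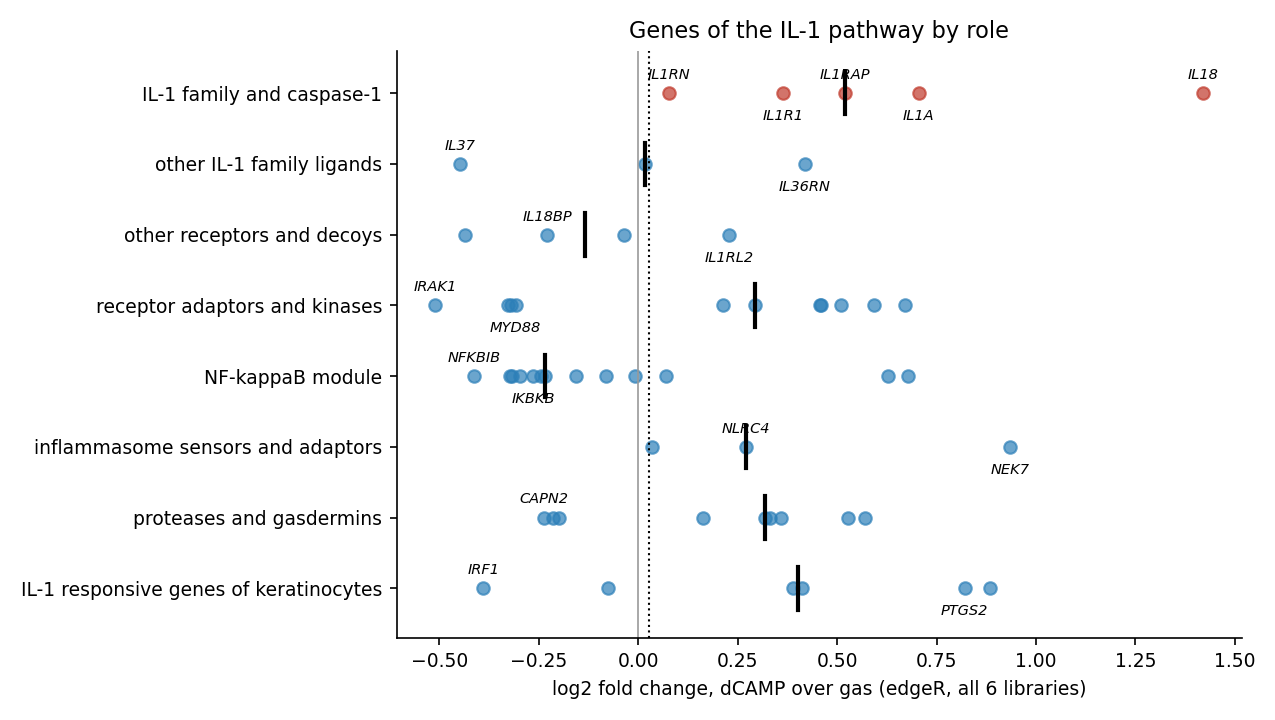
Log2 fold changes of dCAMP over gas (x axis, edgeR on all 6 libraries) of the tested genes in each role group, with the 5 tested members in red, group medians as black bars and the median of all genes tested, 0.03, as a dotted line. IL18 lies farthest to the right at 1.42, and most of the NF-kappaB module lies below 0, with a median of −0.23. Of all 14708 genes tested, which are not plotted, 7002 lie below 0.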

How the data were processed

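Stranded mRNA RNA-Seq libraries, 3 gas-treated and 3 dCAMP-treated, were used. According to the submitters' processing notes and the methods, the authors trimmed the reads with Trimmomatic 0.38, mapped them to CanFam3.1 with HISAT2 2.1.0 and summarized known transcripts with StringTie 2.1.3b. Read counts were deposited unnormalized, for genes and for transcripts. FPKM, as deposited, is scaled to length and to depth. TPM columns were left out. The annotation release and the handling of overlapping genes are not given in the sources used here. Gene names were checked against the RefSeq table, which held 30915 of the gene IDs.

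Counts were analyzed with edgeR 4.0.16 in R 4.3.3 (TMM, filterByExpr, quasi-likelihood test, prior count of 2, Benjamini-Hochberg adjustment over all genes tested). Alternatives used DESeq2 1.42.0, limma 3.58.1 and the settings named in the closing section. Ratios within a library were compared by an exact permutation test. The steps were tested on simulated data. The rule named the 8 members, in each role group the genes past the 2-fold rule or else the 2 of smallest p, and the 5 nearest profiles to IL18. Members and lists were chosen with earlier results of these data known. A result that this rule also covers is not reported here.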

Additional observations from a re-analysis of the deposited data

How the results depend on the processing

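Of the 5 members' log2 fold changes, all kept their sign under the alternatives and without each library, except IL1RN, which was −0.014 with upper-quartile factors and −0.0091 to 0.091 without each library, lowest without gas 3. By the 2-fold rule edgeR called 0 members, and 1 member, IL18, was called as higher with DESeq2 on genes counted in any or in all libraries, with quality-weighted voom, with limma on log2 of FPKM plus 1 or plus 0.1, and 0 to 1 members were called without each library. By adjusted p, 0 members were called, against 4 with voom and 0 to 2 without each library. Of all genes that the 2-fold rule called, 417 of 435 were higher with the replicate block and 904 of 1010 with voom. These shares were 357 of 373 with log2 of FPKM plus 0.1 and 1473 of 1523 without gas 3. The calls were made among 14708 genes tested, and without gas 3 among 14975. By the same rule DESeq2 called 369 of 20284 genes with a count in any library and 327 of 15304 with a count in every library. With log2 of FPKM plus 1, limma called 149 of 14708. Among the other pathway genes the 2-fold rule called 0, against 1 with the replicate block, 2 with voom, 2 with log2 of FPKM plus 0.1 and 0 to 4 without each library, all higher. By adjusted p they numbered 0, against 1 higher with DESeq2 on genes with a count in any library, 18 higher and 17 lower of 49 with voom, and 0 to 11 higher and 0 to 13 lower without each library, with the largest numbers without gas 3. Of all genes, voom called 32.6% higher and 28.2% lower, and the fit without gas 3 called 15% and 18.1%. DESeq2 on genes with a count in any library called 301 of 20284 by adjusted p, 71 of them higher. The cause was not tested. The within-library differences kept their sign, with ranges of 0.48 to 1.77 (IL18 over IL1A), 0.90 to 2.66 (IL1RN), 0.73 to 2.28 (IL1R1) and 0.68 to 1.88 (IL1RAP), and −0.83 to −0.42 for IL1RN over IL1A. Deviations from the group means in same-numbered gas and dCAMP libraries had correlations of 0.13, 0.024 and 0.048. Between unlike numbers the correlations ran from −0.139 (gas 3 with dCAMP 1) to 0.0873 (gas 3 with dCAMP 2). With 3 libraries a group, these values cannot decide whether same-numbered libraries were paired. With the replicate block, IL18 had a log2 fold change of 1.89 (adjusted p = 0.256) and 0 members were called. Ratios to IL1B, IL33 and the caspase gene were not run. With 3 libraries a group, exact tests cannot go below 0.1. Low counts a library, 0 to 3 for IL1B and 0 to 15 for the caspase gene, limit these 2 genes.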
